A study of Mus musculus with 7 samples.

Results

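The miRNAs described here are 6 mature miRNAs known from white blood cells, mmu-miR-142-3p, mmu-miR-142-5p, mmu-miR-150, mmu-miR-223, mmu-miR-342-3p and mmu-miR-342-5p, written below without the mouse prefix. They were chosen by name, as the non-control spots of the arrays whose mature miRNA name equals one of these, and they are 6 of the 696 mouse miRNAs on each array. All 6 were found, with 14 probes in all. The study profiled miRNAs in kidneys of male C57BL/6 mice aged 9 to 12 weeks, operated on under pentobarbital at 50 mg/kg. In unilateral ureteral obstruction, a surgical model of renal fibrosis, the left ureter was tied off, and in the sham operation it was exposed but not tied. Kidneys were taken at day 28, and total RNA carrying the dye Cy3 was hybridized to 1-colour Agilent mouse miRNA arrays. Of the 7 arrays, 4 carried the group label non-treated (replicates 1 to 4) and 3 the label treated (replicates 1, 3 and 4). No other agent or allele was given for either group, and whole kidney RNA, not sorted cells, was measured.

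The labels did not say which operation each group name stands for. Those named treated were numbered with the letter S and those named non-treated with the letter C, and the deposited title speaks of sham kidneys. The groups are called the treated and the non-treated arrays below by their deposited label alone, and every difference is labelled treated minus labelled non-treated. With treated read as obstructed, this direction is opposite to the one the study gives for obstruction against sham, so which arrays hold obstructed kidneys was not settled here.

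A miRNA guides a silencing complex to messenger RNAs mainly through its seed, bases 2 to 8 from its 5′ end, so miRNAs with different seeds have different targets. Expression of the miR-142 hairpin is largely restricted to blood-forming cells, which use both of its arms. MiR-223 is best known from neutrophils and other myeloid cells, where it restrains granulocyte activation, and miR-150 from mature B and T lymphocytes, where it represses the transcription factor Myb. MiR-342 is made from an intron of the Evl gene and is abundant in lymphocytes. In kidney, these miRNAs are commonly read as a sign of blood or infiltrating leukocytes. In a sample of whole tissue, fewer cells of a type and less RNA per cell cannot be told apart.

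The sequences are shown because each member is identified by its mature sequence and would act through its own seed. They were matched by name to RefSeq annotation of mouse build GRCm38.p6 for 5 of the 6 members. Capitals mark the seed, and no coordinate was converted from another build.
miR-142-3p: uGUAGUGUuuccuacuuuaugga
miR-142-5p: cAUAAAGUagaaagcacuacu
miR-223: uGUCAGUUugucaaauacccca
miR-342-3p: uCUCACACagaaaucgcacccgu
miR-342-5p: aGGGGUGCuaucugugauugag
The 5 sequences carried 5 distinct seeds, so none of these members shared a seed with another. MiR-142-3p lay at chr11:87756903-87756925 and miR-142-5p at chr11:87756867-87756887, both on the plus strand. MiR-223 lay at chrX:96242884-96242905, also on the plus strand and within the span of the long noncoding RNA gene F630028O10Rik. MiR-342-3p lay at chr12:108658680-108658702 and miR-342-5p at chr12:108658638-108658659 on the plus strand, within the span of the protein-coding gene Evl. The Mir142 hairpin lay within the span of Mir142b, which is annotated on the opposite strand. For the hairpins that gave 2 members each, capitals mark both mature arms, to show that the arms come from a single precursor.
Mir142: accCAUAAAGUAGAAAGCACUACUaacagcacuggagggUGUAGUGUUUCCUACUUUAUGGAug
Mir342: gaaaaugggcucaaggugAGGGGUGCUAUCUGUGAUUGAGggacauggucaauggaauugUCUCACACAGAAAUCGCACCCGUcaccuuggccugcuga

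Each array held 13920 spots for 1937 probes of miRNAs. Detection calls of Agilent's software numbered 232 to 282 per non-treated array and 193 to 214 per treated array. Spot signals were summed per miRNA, and each array was scaled to the same mean log2 level over the 186 miRNAs that all 7 arrays detected. The level before this step was 7.24 ± 0.40 (SD, n = 4) for the non-treated arrays and 6.09 ± 0.32 (SD, n = 3) for the treated arrays. It was lowest among the non-treated arrays on replicate 3, at 6.65 against 7.40 to 7.52. With that array left out, the 5 members that every array detected were still lower past the threshold used below. In that fit, 39.7% of the 257 miRNAs tested were lower past it. Scaled signals under 2.08, which is 1.06 on the log2 scale, were set to that floor. The number of arrays limits the precision, and p-values measure the spread between these arrays, which the labels list as separate samples, and that spread may be technical.

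All 6 miRNAs had lower signal on each of the treated arrays than on any of the non-treated arrays. The test was limma with Benjamini-Hochberg adjustment over 236 miRNAs, those detected on all arrays of one label or of both, and the 5 members that every array detected were lower past its threshold of 0.01. MiR-342-5p entered the test only through its detection on the non-treated arrays and lay at the floor on the treated arrays, so its call follows from the detection filter and the floor and is not counted with them. Of all miRNAs tested, 34.7% were lower past it and 25.8% higher, 60.6% in all, so a change as such was common on these arrays. The differences of the 5 members ran from -2.52 to -1.76 on the log2 scale, against a median of -0.13 over all miRNAs tested. Groups that did not overlap, with the labelled treated arrays lower, were found for 41.1% of all miRNAs tested. A difference at or below -1.5 was found for 14% of them, some at the floor on the treated arrays, and for each of the 5 members. That cut lies above the members' range given here, so it is a description and no test of them. An exact 2-sided permutation test over the arrays gave p = 0.0571 for each member, the smallest that 3 arrays against 4 allow.

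**Figure D1:**
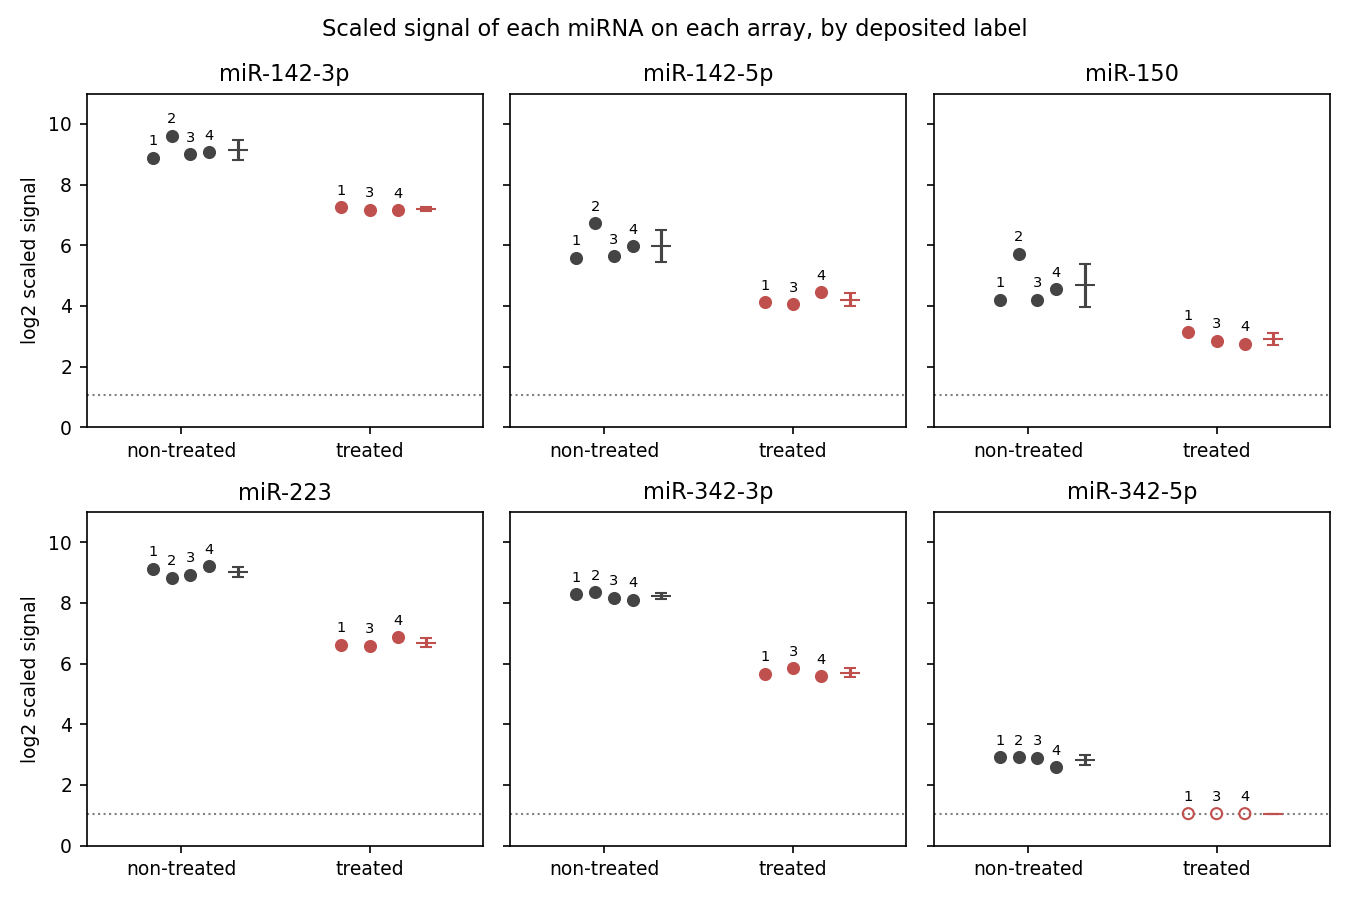
Log2 scaled signal (vertical axis) of the 6 miRNAs on each array, with points for arrays by label group and replicate, bars for the mean and SD, and a dashed line at the floor of 1.06. The groups do not overlap for any miRNA, and miR-342-5p lies at the floor on all 3 arrays labelled treated.

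mmu-miR-342-3p, the 3′ arm of the hairpin in Evl, had the largest fall of the members that every array detected. Its log2 signals were 8.29, 8.35, 8.17 and 8.10 on the non-treated arrays and 5.67, 5.86 and 5.59 on the treated arrays. Both groups were tight, and the gap between them was far wider than either spread. The means were 8.23 ± 0.11 (SD, n = 4) and 5.71 ± 0.14 (SD, n = 3). The difference of -2.52 (standard error 0.10, limma adjusted p = 3.06e-07) had a 95% interval from -2.75 to -2.29 and corresponds to 5.73-fold higher signal on the non-treated arrays. By size it ranked 7 among the falls of the 236 miRNAs tested.

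mmu-miR-342-5p, the other arm of the same hairpin, gave weak signal. Its log2 signals were 2.91, 2.91, 2.90 and 2.59 on the non-treated arrays, where all 4 arrays detected it, and it lay at the floor on each of the 3 treated arrays, none of which detected it. Before scaling, its summed intensity was 11.8, 12.9, 6.99 and 9.47 on the non-treated arrays, and between -0.11 and 1.18 on the treated arrays. The fitted difference was -1.77 (standard error 0.10, limma adjusted p = 1.46e-06), which is the distance of the non-treated arrays to the floor and no measured fall. With a floor at the highest of the arrays' lowest detected signals it was -0.28 (limma adjusted p = 0.030) and no longer past the threshold. It was -0.78 with Agilent's summed signal and -0.68 with probes averaged on the log2 scale. Under normexp background correction, which adds an offset of 50 to each probe, its direction turned, to 0.47 (limma adjusted p = 0.00349). The one probe of it that rose above background averaged less than the lowest probe signals well above background on the treated arrays, so no lower bound on its fold was given. The signal of miR-342-5p was thus lower on each treated array, and its direction turned only under normexp. The size of a change could not be measured at this signal.

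mmu-miR-223, the miRNA best known from neutrophils, had the next largest fall among the members detected on all arrays. Its log2 signals were 9.14, 8.84, 8.93 and 9.21 on the non-treated arrays and 6.62, 6.60 and 6.87 on the treated arrays. No array of either group lay near the other group. The means were 9.03 ± 0.17 (SD, n = 4) and 6.70 ± 0.15 (SD, n = 3). The difference was -2.33 (standard error 0.12, limma adjusted p = 8.45e-07), with a 95% interval from -2.61 to -2.06, or 5.04-fold higher signal on the non-treated arrays. It ranked 13 among all falls. The unscaled intensities were 883, 781, 457 and 932 on the non-treated arrays against 60.5, 77.3 and 60.2 on the treated arrays. That gap includes the lower level of the treated arrays as a whole. Without scaling the difference of miR-223 was -3.49, where the median of all miRNAs tested was -1.22.

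mmu-miR-142-3p, an arm of the hairpin largely restricted to blood-forming cells, had log2 signals of 8.89, 9.61, 8.99 and 9.07 on the non-treated arrays and 7.25, 7.16 and 7.15 on the treated arrays. Non-treated replicate 2 was the highest array, and the treated arrays were nearly equal. The means were 9.14 ± 0.32 (SD, n = 4) and 7.19 ± 0.054 (SD, n = 3). The difference was -1.95 (standard error 0.17, limma adjusted p = 1.26e-05), with a 95% interval from -2.33 to -1.57 and a rank of 19. This corresponds to 3.87-fold higher signal on the non-treated arrays.

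mmu-miR-142-5p, the opposite arm of that hairpin, had log2 signals of 5.59, 6.72, 5.63 and 5.96 on the non-treated arrays and 4.11, 4.04 and 4.45 on the treated arrays. Replicate 2 was again the highest of the non-treated arrays. The means were 5.98 ± 0.52 (SD, n = 4) and 4.20 ± 0.22 (SD, n = 3). The difference was -1.78 (standard error 0.27, limma adjusted p = 3.45e-04), with a 95% interval from -2.39 to -1.17 and a rank of 25. Signal was thus 3.42-fold higher on the non-treated arrays, and the arms of the hairpin fell by amounts whose intervals overlap. Under normexp the difference was -0.21 (limma adjusted p = 0.129) and the call was lost.

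mmu-miR-150, the miRNA known from mature lymphocytes, varied most within the non-treated group. Its log2 signals were 4.21, 5.72, 4.21 and 4.55 on the non-treated arrays and 3.13, 2.84 and 2.75 on the treated arrays. Replicate 2 stood well above the other non-treated arrays, yet the lowest non-treated array still lay above the highest treated array. The means were 4.67 ± 0.72 (SD, n = 4) and 2.91 ± 0.20 (SD, n = 3). The difference was -1.76 (standard error 0.35, limma adjusted p = 0.00185), with a 95% interval from -2.57 to -0.96. Agilent's software called the miRNA detected on all 3 treated arrays, but neither of its probes was well above background on most spots of any of them, so the size of the difference is uncertain and no fold is given. Its call was the least stable of the members detected everywhere. With normexp the difference was 0.10 (limma adjusted p = 0.354), and with the deposited table of single-spot values, leaving out the error estimates that stand there for treated replicate 4, it was -1.75 (limma adjusted p = 0.0197). The other strand of its hairpin, miR-150*, was detected on no array.

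The probes of each miRNA were also fitted singly, among 366 probes well above background on most spots of all arrays of one label or of both. Probes to 1 miRNA share a target and are not replicates. Of the 14 probes of the members, 10 were tested and 9 were lower past the threshold, against 34.2% of all probes tested. The tested probes of miR-142-5p, miR-150 and miR-342-5p passed the filter only through the non-treated arrays. Their calls follow in part from that filter and give no support. Each probe of miR-142-3p, miR-223 and miR-342-3p was well above background on every array and lower past the threshold.

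For miR-223, probe A_54_P2629 differed by -2.21 (standard error 0.18) and probe A_54_P2630 by -2.37 (standard error 0.11) on the log2 scale. For miR-342-3p, probe A_54_P2573 differed by -2.63 (standard error 0.095) and A_54_P2574 by -2.46 (standard error 0.10). The probes of miR-142-3p, A_54_P2308 and A_54_P3691, differed by -1.98 (standard error 0.16) and -1.90 (standard error 0.17). In each of these pairs the probes fell together, and every spot of theirs was well above background on the treated arrays. For miR-142-5p, A_54_P2307 differed by -1.81 (standard error 0.23) and A_54_P4371 by -1.75 (standard error 0.26), with each well above background on 2 of 3 treated arrays.

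The remaining probes were close to background. For miR-150, A_54_P1097 differed by -1.70 (standard error 0.32), but on the treated arrays only 30, 40 and 0% of its spots were well above background. The other probe of miR-150, A_54_P1096, was well above background on 2 of 4 non-treated arrays and none labelled treated, and was not tested. Of the 4 probes of miR-342-5p, A_54_P2570 alone was well above background on most spots of all non-treated arrays. Its intensities were 8.56, 9.60, 6.02 and 8.06 there and 0.187, 1.73 and 0.345 on the treated arrays. That probe differed by -0.30 (standard error 0.095, limma adjusted p = 0.0161), with the treated arrays set to the floor, and did not pass the threshold. With each array left out in turn, 8 to 10 of the member probes passed, 8 without non-treated replicate 3 and 10 without each treated array. These counts include the probes near background on the treated arrays.

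**Figure D2:**
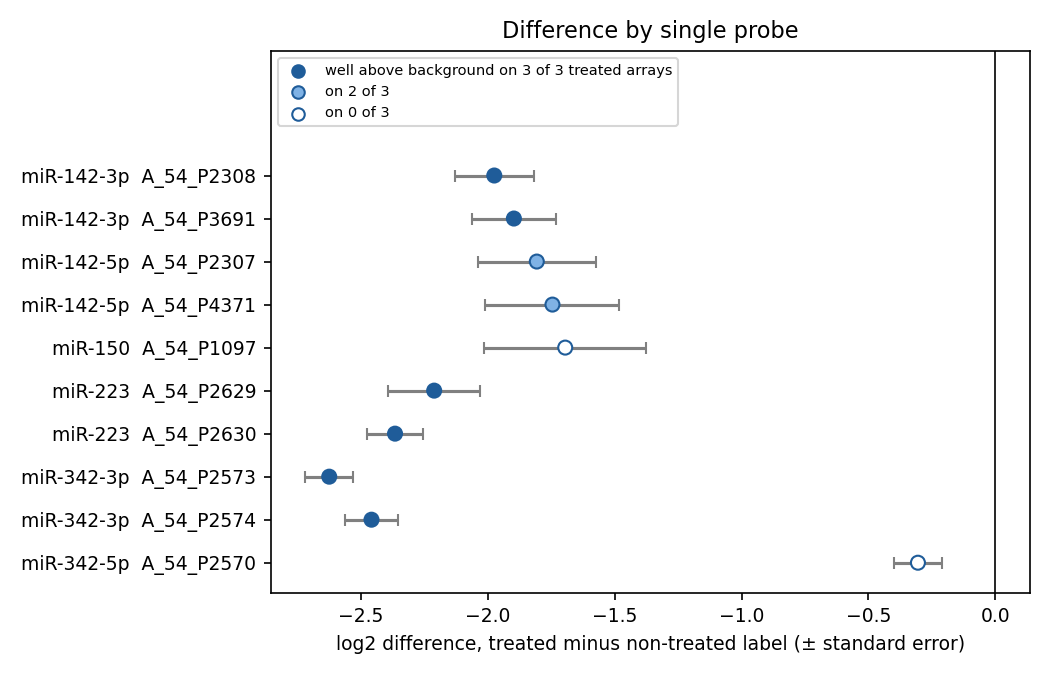
Log2 difference, labelled treated minus labelled non-treated (horizontal axis), of the 10 tested probes of the 6 miRNAs, with bars for the standard error. The probes of a miRNA lie close to each other, and the one tested probe of miR-342-5p lies near 0 at -0.30.

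Among themselves, the members separated in how the non-treated arrays varied. MiR-150 ranged over 1.51 log2 units within that group, miR-142-5p over 1.13 and miR-142-3p over 0.72, while miR-223 ranged over 0.37 and miR-342-3p over 0.24. Replicate 2 lay above the mean of the other 3 non-treated arrays by 1.40 for miR-150, by 0.99 for miR-142-5p and by 0.62 for miR-142-3p. These ranked 1, 3 and 9 among the 236 miRNAs on that array. MiR-342-3p was 0.16 higher there, and miR-223 was -0.26 relative to the same mean, a rank of 220. The miRNAs ranked 2 and 5 on that array were miR-133b, 1.17 higher, and miR-1, 0.80 higher, both known from striated muscle and named here after their values were seen. They were picked from the highest ranks, which also held miR-338-3p (rank 4, 0.86 higher) and miR-33 (rank 6, 0.72 higher). The part of any of these miRNAs in the high values of miR-150 and miR-142 was not tested.

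Without replicate 2 the difference between the labels was -1.41 for miR-150 (limma adjusted p = 9.11e-05), -1.53 for miR-142-5p (limma adjusted p = 7.46e-05) and -1.80 for miR-142-3p (limma adjusted p = 2.88e-06). All were still lower past the threshold, against 32.2% of all miRNAs tested in that fit.

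**Figure D3:**
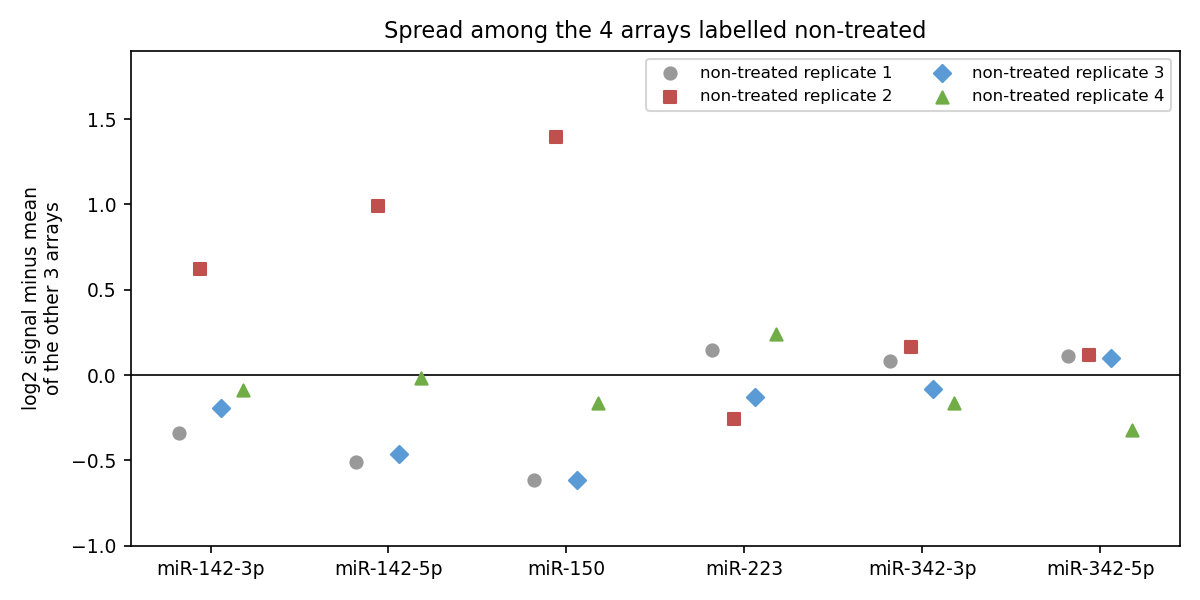
Deviation of each array labelled non-treated from the mean of the other 3 arrays of that label (vertical axis, log2 units) for the 6 miRNAs. Replicate 2 is high for miR-150 (1.40), miR-142-5p (0.99) and miR-142-3p (0.62), but not for miR-223 (-0.26).

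Whether some members fell by more than others was tested on the difference between their log2 signals within each array, which no scaling of whole arrays can change. Of the 10 pairs among the 5 members detected on every array, 1 had groups that did not overlap. The log2 signal of miR-142-3p minus that of miR-342-3p was 0.60, 1.26, 0.83 and 0.97 on the non-treated arrays and 1.58, 1.31 and 1.56 on the treated arrays. The mean gap was 0.57 log2 units wider on the treated arrays, with an exact 2-sided permutation p = 0.0571, the smallest possible, and 0.457 after Benjamini-Hochberg adjustment over the 10 pairs. No pair had a p under 0.05 before or after adjustment, which a design of this size does not allow.

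In the other pairs the groups overlapped. The arms of the miR-142 hairpin differed in their change by -0.18 (exact permutation p = 0.457). MiR-223 against miR-342-3p gave 0.19 (exact permutation p = 0.40), and miR-142-5p against miR-150 gave -0.012 (exact permutation p = 1). MiR-150 against miR-342-3p, at 0.75 (exact permutation p = 0.171), and miR-142-5p against miR-342-3p, at 0.74 (exact permutation p = 0.114), had the largest differences of change but overlapping groups. Unequal falls of these miRNAs were therefore not shown, nor were equal ones.

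The miRNAs with profiles most like each member were found by the root mean square difference of log2 values over the 7 arrays, after centring each miRNA on its own mean, among 185 candidates detected on every array. These are descriptions over arrays that share the group difference and the scaling. MiR-142-3p lay nearest to miR-146a (0.189), then to miR-142-5p (0.210) and miR-183 (0.250). MiR-142-5p lay nearest to miR-142-3p (0.210), miR-150 (0.238) and miR-146a (0.332). MiR-150 lay nearest to miR-142-5p (0.238), miR-142-3p (0.290) and miR-146a (0.451).

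The other members had different neighbours. MiR-223 lay nearest to miR-199a-5p (0.0872), miR-214 (0.145) and miR-199a-3p (0.165). For miR-342-3p they were miR-199a-3p (0.142), miR-199a-5p (0.180) and miR-214 (0.180). MiR-199a and miR-214 are known from mesenchymal cells. The 3 nearest to miR-150 and to each arm of miR-142 were mostly members or miR-146a, which is induced by inflammatory signalling. The measure includes the size of the difference between the labels. That was -2.55 to -2.41 for miR-199a-3p, miR-199a-5p and miR-214, and -2.02 for miR-146a. A split of the members by cell type was not tested.

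Other miRNAs linked to leukocytes or to inflammatory signalling were also lower on the treated arrays. Of 9 listed, 7 were on the array and 6 were tested. The 4 detected on every array were all lower past the threshold, against 34.7% of all miRNAs tested, with differences from -2.02 to -0.52. MiR-146b, detected on no treated array, and miR-132, detected on 2 of 3, were tested only through their detection on the non-treated arrays. Their calls are therefore not counted, and their differences have no fixed size. MiR-146a, a brake on NF-kB signalling, differed by -2.02 (limma adjusted p = 6.06e-07), and miR-155, induced in activated macrophages and lymphocytes, by -1.82 (limma adjusted p = 4.67e-06). The one miRNA of the list on the array that was not tested was detected nowhere.

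Markers of other cell types moved as well. The summed scaled signal of the 6 members was 1361 to 1728 on the non-treated arrays and 324 to 338 on the treated arrays. The mesenchymal list of miR-199a-3p, miR-199a-5p, miR-214, miR-143 and miR-145 moved the same way. All 5 were lower past the threshold, against 34.7% of all miRNAs tested. Their median was -2.41, with smaller falls of miR-143 (-1.05) and miR-145 (-0.82), and their sums were 2530 to 2867 against 574 to 589. The red blood cell miRNAs miR-144, miR-451 and miR-3107 moved the other way. All 3 were higher past the threshold, against 25.8% of all miRNAs tested, with a median of 1.67 and sums of 1095 to 2359 against 4676 to 5202. The miRNAs of white and red blood cells thus moved in opposite directions, and blood left in the vessels was not measured.

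The kidney tubule miRNAs miR-192 and miR-194 were higher and miR-204 lower past the threshold, with a median of 2.92 over the 3 and sums of 246 to 417 against 2212 to 2369. MiR-215 was detected nowhere. The endothelial strands miR-126-3p and miR-126-5p differed by -0.0018 and 0.076 and did not pass, with sums of 1769 to 1955 against 1780 to 1899. Of the miRNAs of other tissues, miR-122 of liver, miR-124 of brain and miR-208b of heart were detected nowhere. MiR-375, known from pancreatic islets, was detected on the 4 non-treated arrays and on none labelled treated. The part of tubule, mesenchymal or red cell content in the fall of the members was not tested.

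**Figure D4:**
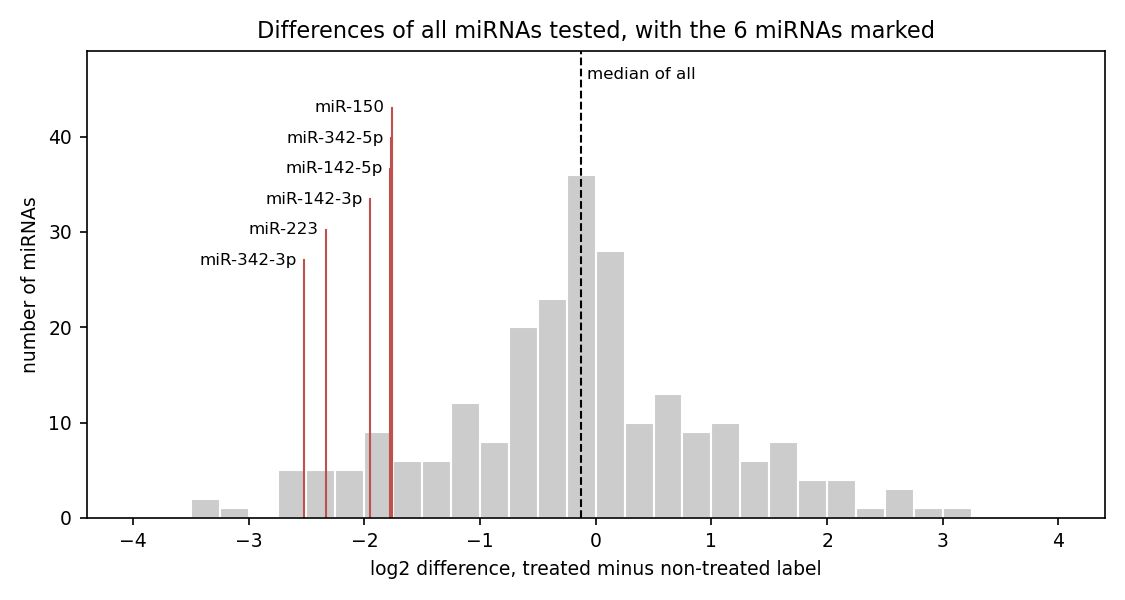
Distribution of the log2 difference, labelled treated minus labelled non-treated (horizontal axis), over the 236 miRNAs tested, counted as miRNAs per bin (vertical axis), with the 6 members marked. All 6 lie at or below -1.76, left of the median of -0.13, with miR-342-5p at its distance to the floor.

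The scaling sets where no change lies, because the mean level before it fell by 1.16 log2 units from the non-treated to the treated arrays. The 5 members that every array detected were lower past the threshold under each of the 7 ways of scaling compared, including none. The share of all miRNAs tested that were lower past it ran from 25.8% with the 75th percentile of all miRNAs to 72.5% with spike-in control spots. Without scaling it was 70.8%, so a lower call was the usual outcome under those last 2 settings. The differences of the 6, with miR-342-5p at its distance to the floor, ran from -3.68 to -1.53 without scaling, where the median of all miRNAs tested was -1.22, and from -3.47 to -1.61 with spike-in control spots, where it was -1.05. With the 75th percentile of all miRNAs they ran from -2.27 to -1.52 about a median of 0.12. The split of all changed miRNAs was 61 higher and 82 lower with the scaling used here, 8 and 167 without scaling, 19 and 171 with spike-in control spots and 76 and 61 with that percentile. The members lay below the median of all miRNAs under each of the 7.

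**Figure D5:**
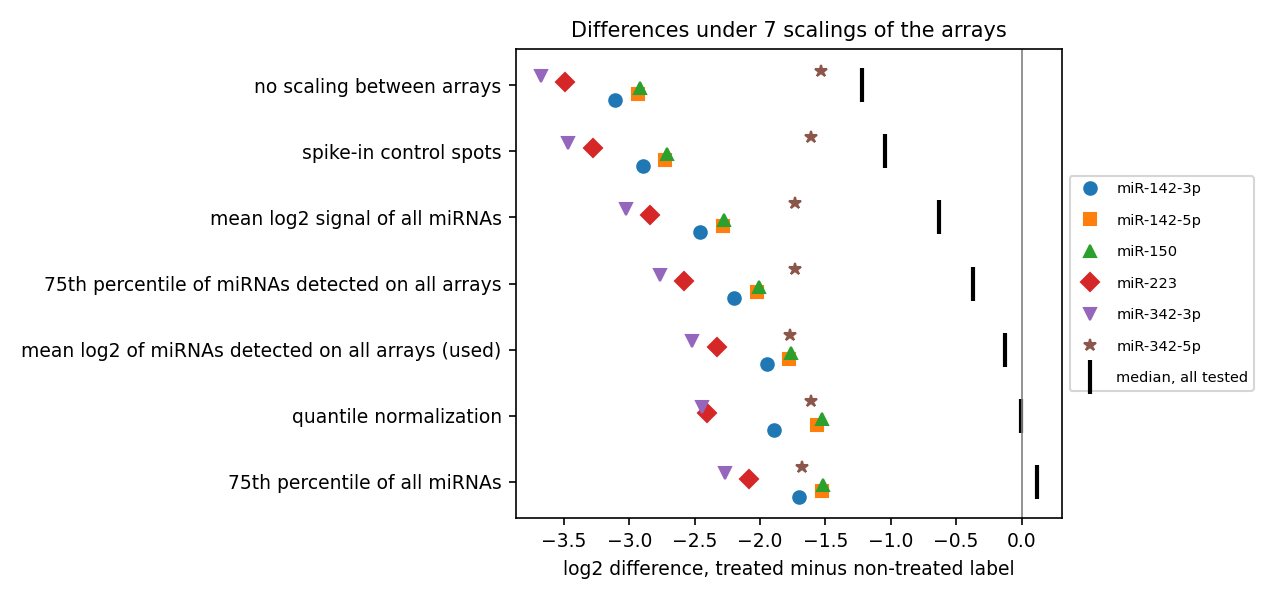
Log2 difference, labelled treated minus labelled non-treated (horizontal axis), of the 6 miRNAs under 7 scalings (vertical axis), with a bar at the median of all miRNAs tested. The median moves from -1.22 without scaling to 0.12 with the 75th percentile of all miRNAs, and every member lies below it in each row.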

How the data were processed

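The deposited array files came from Agilent Feature Extraction, version 10.7.3.1 per the submitters' processing notes. The authors' values in them are linear spot intensities after background subtraction, not normalized between arrays. A figure legend of the study gives 4 mice per group, and 7 arrays were analysed here. A table of values that the authors deposited holds the intensity of each probe's first spot for 6 arrays and error estimates for treated replicate 4, so it served as an alternative. The labels name the RecoverAll kit for RNA extraction. The study's methods name that kit for fixed and embedded human kidney, and the miRNeasy kit for tissue and cells. Which kit served for these arrays was not resolved.

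Spots flagged as outliers were left out, intensities were averaged per probe and summed per miRNA, and each array was scaled by its mean log2 level of the miRNAs that all arrays detected. Scaled values were floored at 2.08 and taken as log2. The floor is the median over arrays of the lowest scaled signal among detected miRNAs. No spot was saturated. limma 3.58.1 in R 4.3.3 compared the labels, with Benjamini-Hochberg adjusted p below 0.01. Exact permutation tests were 2-sided over 35 splits. On simulated data for this comparison, 60 of 60 changes of 1.5 log2 units among 236 miRNAs were recovered, with 0 false calls. In the real data 143 miRNAs changed, by unequal amounts, so the simulation does not give the error rates of the calls here.

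The members and lists were chosen with earlier results of these data known. Named are the 6 members, passenger strands of their hairpins, up to 4 of the other leukocyte-linked miRNAs, the listed markers of other cell types and the 3 nearest profiles of each member detected on every array. MiR-133b, miR-1, miR-338-3p and miR-33 fall outside this rule and were named after their values were seen. Alternatives covered scaling, signal column, background correction, detection filter, floor, adjustment, a block for the replicate number and leaving out each array. The 2 chosen after seeing the data were the higher floor and the pairs of members with an array left out. normexp used median signals, since the files used here carry no column of mean signals. Patient, PCR and serum measurements were not analysed here.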

Additional observations from a re-analysis of the deposited data

Results flagged for a closer look

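The signal of miR-342-5p on non-treated replicate 4 was 2.59 on the log2 scale, against 2.90 to 2.91 on the other arrays labelled non-treated. Its gap to the nearest array took up 0.96 of the range of the group, past Dixon's limit for 4 values. Of the 6 members, 1 was past this limit, and chance passes about 1 in 20 groups. Without that array the difference of miR-342-5p between the labels was -1.87 in place of -1.77, and its size still depends on the floor.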

How the results depend on the processing

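MiR-142-3p, miR-223 and miR-342-3p kept their direction and call under all 26 alternatives, with differences from -3.11 to -1.62, -3.49 to -1.74 and -3.68 to -1.34. MiR-142-5p kept its call under 23 of 26 and miR-150 under 20 of 26. For miR-342-5p it was 22 of 25, where the call follows from the detection filter and the floor. With normexp, miR-142-5p was at -0.21, miR-150 at 0.10 and miR-342-5p at 0.47 (limma adjusted p = 0.00349). The offset of 50 per probe in normexp shrinks differences of low signals, and the cause of the turned signs was not tested. With the deposited table, miR-150 was at -1.20 and miR-342-5p at -0.74, and 61 miRNAs changed in place of 143. Without its column of error estimates, miR-150 was at -1.75 (limma adjusted p = 0.0197), miR-342-5p at -2.64 (limma adjusted p = 1.05e-04), and 94 changed. With no detection filter, which tests more miRNAs, adjusted p rose to 0.0136 for miR-142-5p (-1.78) and 0.0391 for miR-150 (-1.76). With Bonferroni adjustment, which is stricter, these p-values were 0.0348 and 0.226, and 84 miRNAs changed. The methods' t-test gave 139 miRNAs below the threshold unadjusted and 126 after Benjamini-Hochberg adjustment, which left miR-150 at an adjusted p of 0.0167 in that test over all miRNAs. With the higher floor, chosen after seeing the data, miR-342-5p was at -0.28.

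Dropping any single array left the 5 members that every array detected lower past the threshold. In these fits 28.0 to 39.7% of all miRNAs tested were lower past it. The differences ran from -2.04 to -1.80 for miR-142-3p, -1.92 to -1.53 for miR-142-5p and -1.94 to -1.41 for miR-150. They ran from -2.40 to -2.27 for miR-223 and -2.59 to -2.43 for miR-342-3p. MiR-342-5p, by its distance to the floor, ran from -1.87 to -1.61, and its call is not counted. The number of miRNAs changed ran from 126 to 163, highest without non-treated replicate 3. The difference of change between miR-142-5p and miR-150 turned from -0.012 to between 0.014 and 0.15 without 5 of the 7 arrays in turn, namely all but non-treated replicate 2 and treated replicate 4. Same-numbered arrays of the groups did not deviate together (r of 0.080, -0.076 and 0.13 for replicates 1, 3 and 4), so the numbers were not taken as pairs. With the replicate number as a block, over replicates 1, 3 and 4, 127 miRNAs changed. The 5 members that every array detected were lower past the threshold, against 30.1% of all miRNAs tested. MiR-150 was then at -1.41, miR-142-5p at -1.53 and miR-342-5p, by its distance to the floor, at -1.61. Treated replicates 1 and 4 each correlated best with the non-treated array of their own number, and treated replicate 3 with non-treated replicate 2. Signal over background limits miR-342-5p and miR-150, whose probes were near background on the arrays labelled treated.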

Other observations

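The column medians of the deposited value table over its 1981 probes were 0.445, 0.532, 0.47 and 0.346 for non-treated replicates 1 to 4 and 0.322 and 0.276 for treated replicates 1 and 3, all as linear intensities with no scaling. The column of treated replicate 4, which held error estimates, had a median of 1.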
